A study of Mus musculus with 6 samples.

Results

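The 8 oligodendrocyte precursor genes *Pdgfra*, *Cspg4*, *Olig1*, *Olig2*, *Sox10*, *Gpr17*, *Lhfpl3* and *Neu4* were followed in RNA-seq libraries of isolated hippocampal astrocytes. They were taken by gene name from the deposited tables of 24421 genes, and all 8 were found and passed the filter on low values. All mice were adult, of the C57BL/6 strain and of the genotype Siglechdtr/dtr, in which the diphtheria toxin (DT) receptor sits in the *Siglech* gene, so that DT kills microglia. The PBS group (3 libraries) received the vehicle and the DT group (3 libraries) received DT at 50 μg/kg, and hippocampi were taken 2 days later. For each library the cells of 2 mice were pooled. Per the methods, myelin debris and CD11b+ cells were removed before the astrocytes were bound by beads with an antibody to ACSA-2. This surface antigen is the sodium pump subunit encoded by *Atp1b2*. None of these libraries came from mice without the receptor, so within them effects of DT and of microglial loss cannot be told apart.

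Oligodendrocyte precursor cells, also called NG2 glia, divide in the adult brain and give rise to myelinating oligodendrocytes. The growth factor PDGF-A acts on them through the receptor encoded by *Pdgfra*, and their identity rests on the transcription factors encoded by *Olig1*, *Olig2* and *Sox10*. They are marked on the surface by NG2, the proteoglycan encoded by *Cspg4*, and on the way to myelination they pass through a stage marked by the receptor GPR17. Some of these genes are also known from other cells. *Cspg4* is a gene of pericytes, *Pdgfra* of fibroblasts, and *Olig2* is found in some astrocytes.

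The libraries were astrocyte libraries by their levels. Library totals ran from 21704891 to 32933975 counts. A list of 12 astrocyte genes, among them *Aqp4*, *Slc1a2* and *Slc1a3*, summed to between 33311 and 35579 TPM, a level scaled to transcript length and to the library, and the groups overlapped. *Atp1b2*, the gene of the antigen bound by the beads, was at 1030, 979 and 1034 TPM after PBS and at 1328, 1186 and 1222 TPM after DT. Its groups did not overlap (log2 fold change 0.28, adjusted p = 0.207 from limma), and its part in the levels of the 8 genes was not tested. The 8 precursor genes summed to 314, 277 and 311 TPM in PBS replicates 1, 2 and 3 and to 241, 254 and 264 TPM in DT replicates 1, 2 and 3, on average 0.0301% and 0.0253% of all transcripts in these units. Genes of microglia, the target of the toxin, had sums from 277 to 363 TPM in the PBS and from 149 to 170 TPM in the DT libraries. *Siglech* was low already in the PBS libraries, at 1.14, 2.62 and 2.36 TPM, and at 0 in each DT library. In bulk RNA, fewer cells of a type and less RNA per cell cannot be told apart.

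Each of the 8 genes is placed on mm10 by GENCODE M21. *Pdgfra* lies on chromosome 5 from 75152292 to 75198215 and *Lhfpl3* on the same chromosome from 22746059 to 23275597, both on the plus strand. *Cspg4* lies on chromosome 9 from 56865033 to 56899870 and *Neu4* on chromosome 1 from 94020451 to 94028334, also on the plus strand. *Olig2* and *Olig1* are neighbours on the plus strand of chromosome 16, from 91225457 to 91228677 and from 91269772 to 91271933, with 41094 bases between them. *Sox10* spans 79154908 to 79165240 of chromosome 15, on the minus strand. The noncoding gene *6030443J06Rik* spans exon sequence of *Lhfpl3* on the same strand, so the counts of *Lhfpl3* are less certain.

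The 150 bases just before the gene start are shown for 4 genes, 2 with lower mean levels after DT (*Pdgfra* and *Cspg4*) and 2 with nearly equal ones (*Olig2* and *Neu4*). They are RefSeq sequence of mm10, plus strand, 5′ to 3′, and end before the earlier of the RefSeq and GENCODE starts. Capitals mark CANNTG, the E-box, which basic helix-loop-helix factors such as OLIG1 and OLIG2 bind.
Pdgfra, chr5:75152101-75152250: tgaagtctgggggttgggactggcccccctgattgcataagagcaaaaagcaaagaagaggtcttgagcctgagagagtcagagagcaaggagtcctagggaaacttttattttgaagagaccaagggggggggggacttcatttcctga
Cspg4, chr9:56864883-56865032: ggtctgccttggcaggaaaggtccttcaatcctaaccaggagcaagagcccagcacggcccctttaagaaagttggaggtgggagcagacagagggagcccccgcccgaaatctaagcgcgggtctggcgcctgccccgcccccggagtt
Olig2, chr16:91225307-91225456: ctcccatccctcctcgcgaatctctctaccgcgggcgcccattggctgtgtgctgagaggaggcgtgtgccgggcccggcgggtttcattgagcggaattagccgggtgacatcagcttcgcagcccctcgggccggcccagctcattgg
Neu4, chr1:94020301-94020450: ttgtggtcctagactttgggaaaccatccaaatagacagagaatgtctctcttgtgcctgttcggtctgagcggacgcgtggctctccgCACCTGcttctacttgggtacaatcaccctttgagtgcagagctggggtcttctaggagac

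The E-box letters, which read alike on both strands, occurred 1 time in *Neu4* and 0 times in the other 3 windows, and 47.7% of 32843 RefSeq windows of the same length held them. The letters ACAANG, the core that SOX factors such as SOX10 bind, were searched on both strands and occurred in 0 of these 4 windows and in 23.0% of all windows, with no overlap between the motifs. *Pdgfra* was 50.7% G and C in this window, *Cspg4* 63.3%, *Olig2* 66.7% and *Neu4* 52.7%. RefSeq windows were found for 5 of the 8 genes. The remaining one was that of *Lhfpl3*, which held 1 E-box.

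The levels after PBS set the genes in an order that the groups largely shared. *Olig1* had the highest mean, at 85.8 ± 6.66 TPM (SD, n = 3), followed by *Olig2* at 63.2 ± 11.2 TPM (SD, n = 3) and *Pdgfra* at 58.4 ± 9.78 TPM (SD, n = 3). The ranges of *Olig2* and *Pdgfra* overlapped after PBS and did not after DT. *Cspg4* stood at 42.4 ± 7.41 TPM and *Gpr17* at 34.2 ± 5.42 TPM (SD, n = 3), with overlapping ranges after PBS. *Sox10* followed at a mean 3.46 times lower than that of *Gpr17*, at 9.90 ± 0.60 TPM (SD, n = 3). *Lhfpl3* at 3.65 ± 1.11 TPM and *Neu4* at 3.16 ± 0.05 TPM (SD, n = 3) overlapped in both groups. Among the 15137 genes tested, the PBS level of *Olig1* stood at percentile 85.7 and that of *Neu4* at percentile 14.2.

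The question put to these genes was whether their levels differed 2 days after DT. *Pdgfra*, *Cspg4* and *Gpr17*, called the receptor and surface genes here, had lower means in the DT group. The log2 fold changes of the 3 transcription factors, of *Lhfpl3*, which also encodes a membrane protein, and of *Neu4* lay between -0.10 and 0.04. None of the 8 passed an adjusted p-value of 0.05 in limma, where 0.713% of all genes tested did, 0.159% as lower and 0.555% as higher. At an unadjusted p-value under 0.05, 3 of the 8 genes were lower and 0 higher, against 4.51% and 5.91% of all genes. With edgeR's quasi-likelihood test 0 of the 8 genes passed after adjustment, where 0.152% of all genes passed as lower and 0.542% as higher. With DESeq2 *Gpr17* and *Pdgfra* passed as lower, where DESeq2 called 0.648% of genes lower. The median log2 fold change of the 8 genes was -0.10, with 5 below 0 and 3 above, and that of all genes tested was -0.01. In CPM as in TPM, the groups did not overlap for 2 of the 8 genes, both lower after DT, and in CPM the same held for 7.57% of all genes tested.

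**Figure D1:**
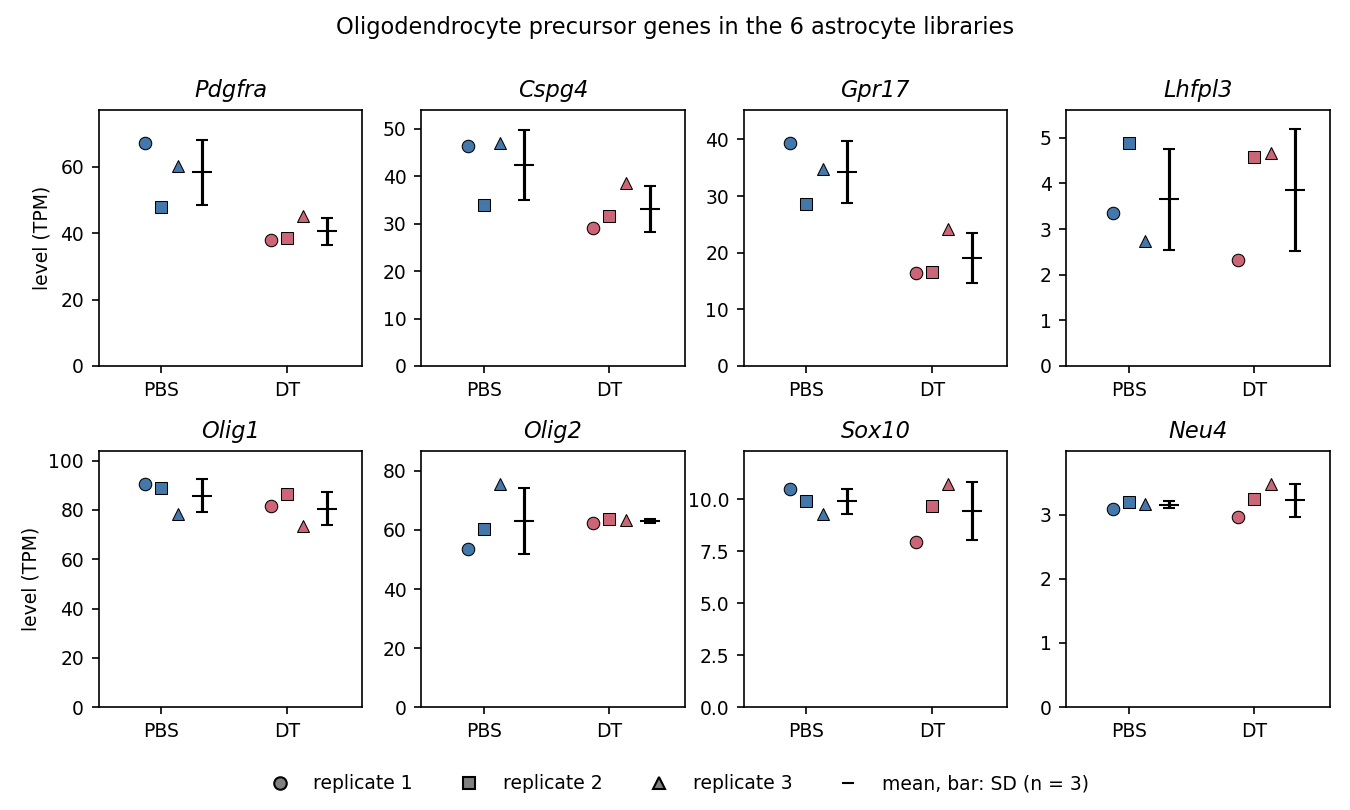
Level of each of the 8 genes (TPM, linear axis from 0) in the 3 PBS and 3 DT libraries, with a marker shape for each replicate number and the mean and SD beside the points. *Gpr17* and *Pdgfra* are the panels in which every DT library lies below every PBS library, and *Olig2* spans 53.7 to 75.5 TPM after PBS but 62.3 to 63.6 TPM after DT.

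*Gpr17* encodes a G protein-coupled receptor of precursors that have committed to the oligodendrocyte fate. It lies on the minus strand of chromosome 18 (31942997 to 31949636 on mm10) and overlaps *Lims2* on the other strand. *Gpr17* was at 39.4, 28.6 and 34.8 TPM in PBS replicates 1, 2 and 3 and at 16.4, 16.7 and 24.2 TPM in DT replicates 1, 2 and 3. Every DT library was below the lowest PBS library. The log2 fold change was -0.86 (standard error 0.17, 95% interval -1.25 to -0.47, adjusted p = 0.0875 from limma), a level 0.550 times that of the PBS group, from 678 to 1652 counts per library. The adjusted p-value was 8.13e-05 with DESeq2 and 0.0252 from limma without DT replicate 3, the highest of the DT libraries, and it did not pass the threshold in the other 12 of 14 alternatives. *Lims2* itself was at 9.41 ± 2.14 CPM after PBS and 7.02 ± 1.55 CPM after DT (SD, n = 3), a log2 fold change of -0.41 with an adjusted p of 0.556 from limma (CPM, counts scaled to the library but not to length).

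*Pdgfra* encodes the receptor through which PDGF-A keeps precursors dividing. It was at 67.1, 47.8 and 60.2 TPM in the PBS libraries and at 38.1, 38.5 and 45.1 TPM in the DT libraries, in the order of the replicate numbers. The DT libraries again lay below all PBS libraries, with PBS replicate 2 and DT replicate 3 closest to each other. The log2 fold change was -0.53 (standard error 0.13, 95% interval -0.83 to -0.23, adjusted p = 0.184 from limma), a level 0.694 times that of the PBS group. The adjusted p-value was 0.00556 with DESeq2 and 0.0453 from limma without PBS replicate 2, and the 14 alternatives gave 0.00556 to 0.454.

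*Cspg4* encodes NG2. Its levels were 46.4, 33.9 and 47.0 TPM after PBS and 29.2, 31.6 and 38.5 TPM after DT. The groups overlapped, since DT replicate 3 lay above PBS replicate 2. The log2 fold change was -0.36 (standard error 0.15, 95% interval -0.70 to -0.03, adjusted p = 0.446 from limma), and it passed the threshold in 0 of 14 alternatives.

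*Olig1* and *Olig2* encode the basic helix-loop-helix factors of the lineage. *Olig1* was at 90.4, 88.8 and 78.2 TPM after PBS and at 81.5, 86.6 and 73.5 TPM after DT. *Olig2* was at 53.7, 60.3 and 75.5 TPM after PBS and at 62.3, 63.6 and 63.4 TPM after DT. Both had overlapping groups, and the PBS libraries of *Olig2* spread wider (SD 11.2 TPM) than its DT libraries (SD 0.71 TPM). The log2 fold change of *Olig1* was -0.10 (95% interval -0.31 to 0.10, adjusted p = 0.745 from limma). For *Olig2* it was 0.00 (95% interval -0.26 to 0.26, adjusted p = 0.999 from limma), so these intervals hold levels between 0.808 and 1.07 times that of the PBS group for *Olig1* and between 0.836 and 1.20 times for *Olig2*. The ratio of *Olig1* to *Olig2* ranged from 1.04 to 1.68, both values being from PBS libraries.

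*Sox10*, the SOX factor that carries the lineage through to myelination, was at 10.5, 9.92 and 9.29 TPM after PBS and at 7.96, 9.68 and 10.7 TPM after DT. The highest and the lowest value were both from DT libraries. Its log2 fold change was -0.09 (95% interval -0.42 to 0.24, adjusted p = 0.876 from limma), from 172 to 300 counts per library.

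*Neu4* encodes a sialidase and *Lhfpl3* a membrane protein of the tetraspan type. *Neu4* was at 3.10, 3.20 and 3.17 TPM after PBS and at 2.96, 3.25 and 3.48 TPM after DT, and *Lhfpl3* at 3.35, 4.88 and 2.73 TPM after PBS and at 2.32, 4.57 and 4.67 TPM after DT. The groups of both overlapped. The log2 fold change was 0.01 for *Neu4* (95% interval -0.34 to 0.36, adjusted p = 0.986 from limma) and 0.04 for *Lhfpl3* (95% interval -0.66 to 0.75, adjusted p = 0.976 from limma). *Lhfpl3* had 55 to 160 counts per library and *Neu4* 106 to 161. The interval of *Lhfpl3* holds levels from 0.633 to 1.68 times that of the PBS group, and its libraries spread wider (CV 30.4% after PBS and 34.4% after DT) than those of *Neu4* (1.74% and 8.05%).

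The receptor and surface genes were then set against the transcription factors within each library, a grouping chosen after the values had been seen, so that the sums and ratios restate the gene values within libraries and are given with no test. *Pdgfra*, *Cspg4* and *Gpr17* together made up 135 ± 22.1 TPM in the PBS group and 92.8 ± 13.2 TPM in the DT group (SD, n = 3), 31.3% less. *Olig1*, *Olig2* and *Sox10* together made up 159 ± 4.16 TPM and 153 ± 6.18 TPM (SD, n = 3), 3.62% less. The ratio of *Gpr17* to *Olig2* was 0.733, 0.474 and 0.461 in the PBS libraries and 0.264, 0.262 and 0.382 in the DT libraries, without overlap. The ratio of *Gpr17* to *Sox10* was 3.75, 2.88 and 3.74 after PBS and 2.07, 1.72 and 2.26 after DT, also without overlap. Of the 9 ratios plotted, the groups also lay apart for *Pdgfra* to *Olig2* and *Pdgfra* to *Sox10*, and the other 5, all with *Cspg4* or *Olig1*, overlapped.

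**Figure D2:**
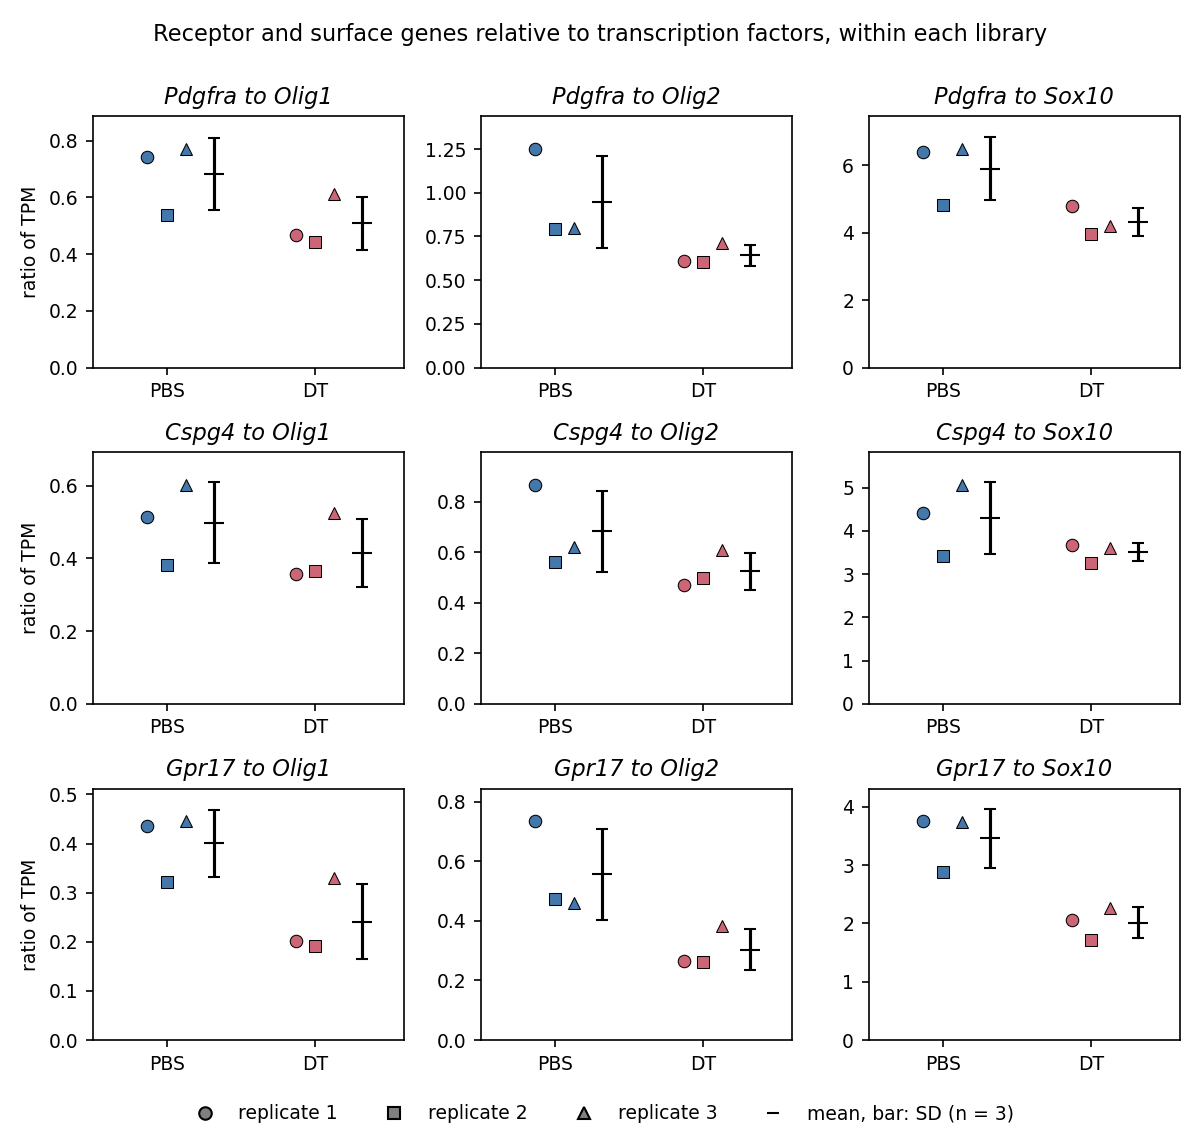
Ratio of the TPM of a receptor or surface gene (rows *Pdgfra*, *Cspg4*, *Gpr17*) to that of a transcription factor (columns *Olig1*, *Olig2*, *Sox10*) in each library, on linear axes from 0, with the mean and SD beside the points. The DT libraries lie below the PBS libraries without overlap in the *Olig2* and *Sox10* panels of *Pdgfra* and *Gpr17*.

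Genes known from oligodendrocyte precursors outside the 8 were taken from a list of 18. Of these, 15 had a log2 fold change below 0 and 3 above, with a median of -0.29, and 1 passed the threshold, as lower. *Pcdh15*, a protocadherin gene, was at 9.18, 8.86 and 9.12 TPM after PBS and at 5.55, 6.49 and 6.23 TPM after DT. On the log2 scale it fell by 0.59 (standard error 0.09, limma adjusted p = 0.0238), with the groups apart, and passed in 6 of 14 alternatives. It did not pass in any of the 6 fits that each left out 1 library (adjusted p from 0.0701 to 0.0961 in limma), with TPM (adjusted p = 0.200) or with the replicate number as a block (adjusted p = 0.0512). *Matn4*, which encodes the matrix protein matrilin, was at 11.0 ± 1.62 TPM after PBS and 6.05 ± 0.79 TPM after DT (SD, n = 3), without overlap and with -0.86 as its log2 fold change (limma adjusted p = 0.105). In CPM, 6 of the 18 genes lay lower without overlap and 1 higher, against 7.57% and 8.75% of all genes tested.

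The genes of this list with the highest levels are ones that astrocytes express as well. The proteoglycan genes *Bcan* and *Cspg5* were at 2436 ± 154 TPM and 972 ± 42.3 TPM (SD, n = 3) after PBS, and the receptor phosphatase gene *Ptprz1* at 758 ± 25.5 TPM (SD, n = 3). The sum of the 18 genes was 529 TPM lower on average after DT, of which *Bcan* alone made up 470 TPM, and without *Bcan* it was 2093 ± 44.4 TPM after PBS and 2035 ± 161 TPM after DT (SD, n = 3), with overlap. *Bcan* levels did not overlap (log2 fold change -0.32, limma adjusted p = 0.200), and the log2 fold change was -0.05 for *Cspg5* and -0.03 for *Ptprz1*.

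**Figure D3:**
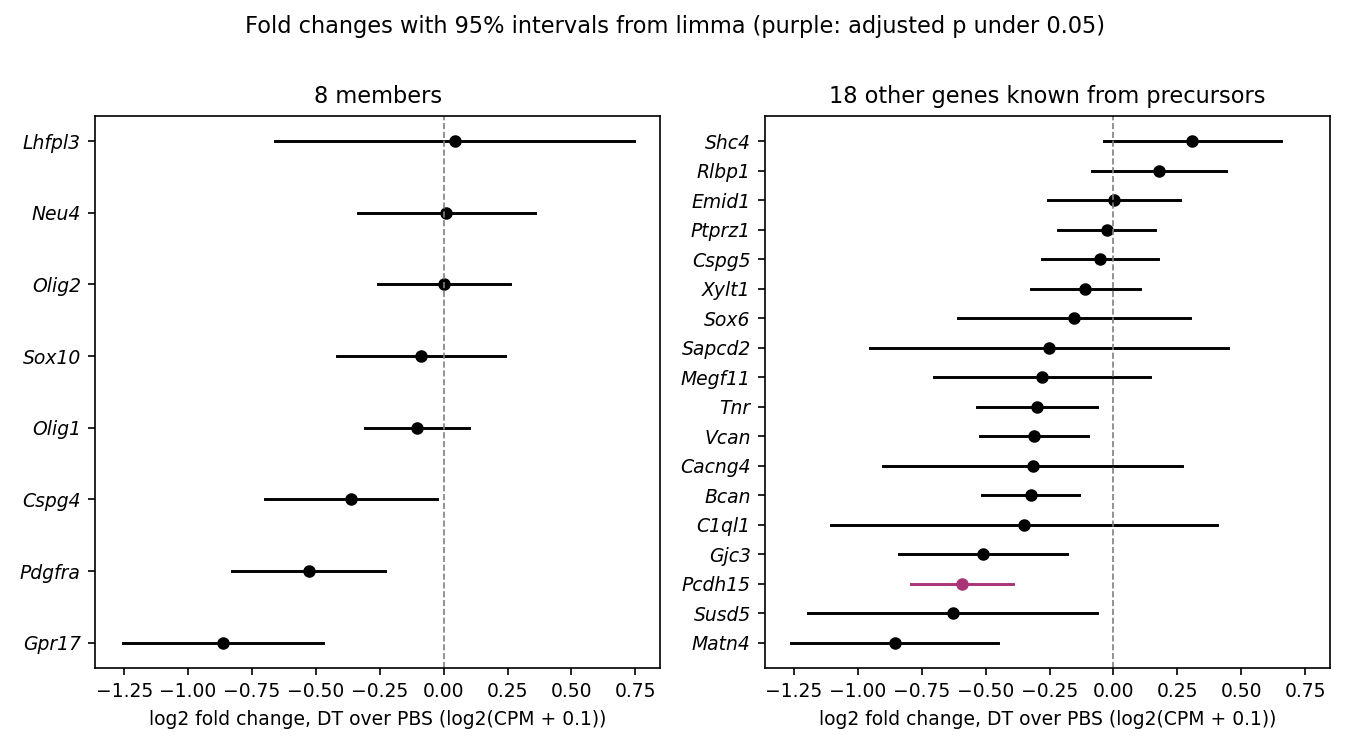
Log2 fold change of DT over PBS with its 95% interval from limma, on the log2(CPM + 0.1) scale, for the 8 precursor genes (left, headed members) and the 18 other genes known from precursors (right), each ordered by its value. *Gpr17*, *Pdgfra*, *Cspg4*, *Matn4* and *Pcdh15* are among the genes with intervals below 0, and *Pcdh15* is the single gene drawn as past the adjusted threshold.

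Genes of the next stage, committed precursors and newly formed oligodendrocytes, numbered 10, of which 9 passed the filter and 0 passed the threshold in limma. The gene that did not pass the filter was *Enpp6*, with 4 to 18 counts per library. At an unadjusted limma p-value under 0.05, 2 genes were lower and 0 higher, against 4.51% and 5.91% of all genes tested. The median log2 fold change was -0.16. *Tcf7l2*, a Wnt pathway transcription factor gene, was at 26.1 ± 1.92 TPM after PBS and 22.0 ± 0.30 TPM after DT, and *Bcas1* at 27.1 ± 0.78 and 23.5 ± 0.43 TPM (SD, n = 3), both without overlap. Their log2 fold changes were -0.25 (adjusted p = 0.369) and -0.21 (adjusted p = 0.394 from limma). Among the genes with the highest levels, the log2 fold change was 0.07 for *Itpr2*, an inositol trisphosphate receptor gene, and -0.03 for *Fyn*, a tyrosine kinase gene. Their PBS levels stood at percentiles 90.4 and 90.8 of the genes tested. For *Kif19a*, also among the highest, the log2 fold change was 0.24 (limma adjusted p = 0.528), with 39.1 TPM in DT replicate 3 as its highest level. From which cells the RNA of these genes came was not tested.

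Of 15 other transcription regulators of the lineage, 10 were below 0 and 5 above, with a median of -0.19 and 0 past the threshold in limma. Without adjustment, 4 were lower and 0 higher at a limma p-value under 0.05, against 4.51% and 5.91% of all genes tested. *Hes1*, a Notch target that restrains differentiation, was at 84.5, 91.3 and 103 TPM after PBS and at 68.2, 70.9 and 65.1 TPM after DT. Its groups did not overlap, at a log2 fold change of -0.46 ± 0.09 (standard error, limma adjusted p = 0.0765). *Sox8*, the relative of *Sox10*, was at 127 ± 14.6 TPM after PBS and 101 ± 11.1 TPM after DT (SD, n = 3), and the groups overlapped in CPM but not in TPM (log2 fold change -0.34, limma adjusted p = 0.341). For *Id4*, an inhibitor of helix-loop-helix factors, it was -0.30 (limma adjusted p = 0.343), with 0.00 for its relative *Id2* and 0.01 for *Tcf4*. Some of the 15 are expressed by astrocytes too, and *Id4* stood at percentile 99.6 of the genes tested.

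Among the PDGF genes, the ligand of *Pdgfra*, *Pdgfa*, was at 35.8 ± 2.83 TPM after PBS and 36.8 ± 5.44 TPM after DT (SD, n = 3), so its log2 fold change was 0.02 (limma adjusted p = 0.977). The ligand genes *Pdgfd* and *Pdgfb* had log2 fold changes of -0.26 (adjusted p = 0.404) and -0.34 (adjusted p = 0.614). *Pdgfrb*, the beta receptor of pericytes, was at 149 ± 18.7 TPM and 147 ± 14.1 TPM (SD, n = 3). None of the 5 passed the threshold in limma, and their median was -0.03. Without adjustment, 1 was lower and 0 higher at a limma p-value under 0.05, against 4.51% and 5.91% of all genes tested.

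Other cell types were read from fixed marker lists, since several of the 8 genes are shared with them. The 11 myelin genes, among them *Mbp*, *Mog* and *Mag*, had sums from 427 to 501 TPM in the PBS libraries and from 341 to 423 TPM in the DT libraries, with 9 below 0, 2 above and a median log2 fold change of -0.34. None passed the threshold in limma, with 3 lower and 0 higher at an unadjusted p-value under 0.05, against 4.51% and 5.91% of all genes tested. The myelin sums lay apart only with *Mal* counted, at 47.0 ± 4.54 TPM after PBS and 19.6 ± 17.1 TPM after DT (SD, n = 3). The 10 pericyte and smooth muscle genes, among them *Rgs5*, *Kcnj8* and *Abcc9*, had sums from 809 to 1277 TPM in the PBS and from 972 to 1371 TPM in the DT libraries, with a median of 0.08. The 8 fibroblast genes, among them *Dcn*, *Col1a1* and *Col1a2*, had sums from 47.0 to 72.7 TPM in the PBS and from 47.4 to 71.3 TPM in the DT libraries, with a median of -0.01. Neither list had a gene without overlap between the groups, and 0 of their genes passed at an unadjusted p-value under 0.05 in limma. The 10 endothelial genes, among them *Cldn5*, *Pecam1* and *Flt1*, had sums from 742 to 1183 TPM in the PBS and from 629 to 756 TPM in the DT libraries. All 10 were below 0, with a median of -0.39 and 0 past the threshold. Of these, 5 were lower at an unadjusted limma p-value under 0.05, against 4.51% of all genes tested.

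**Figure D4:**
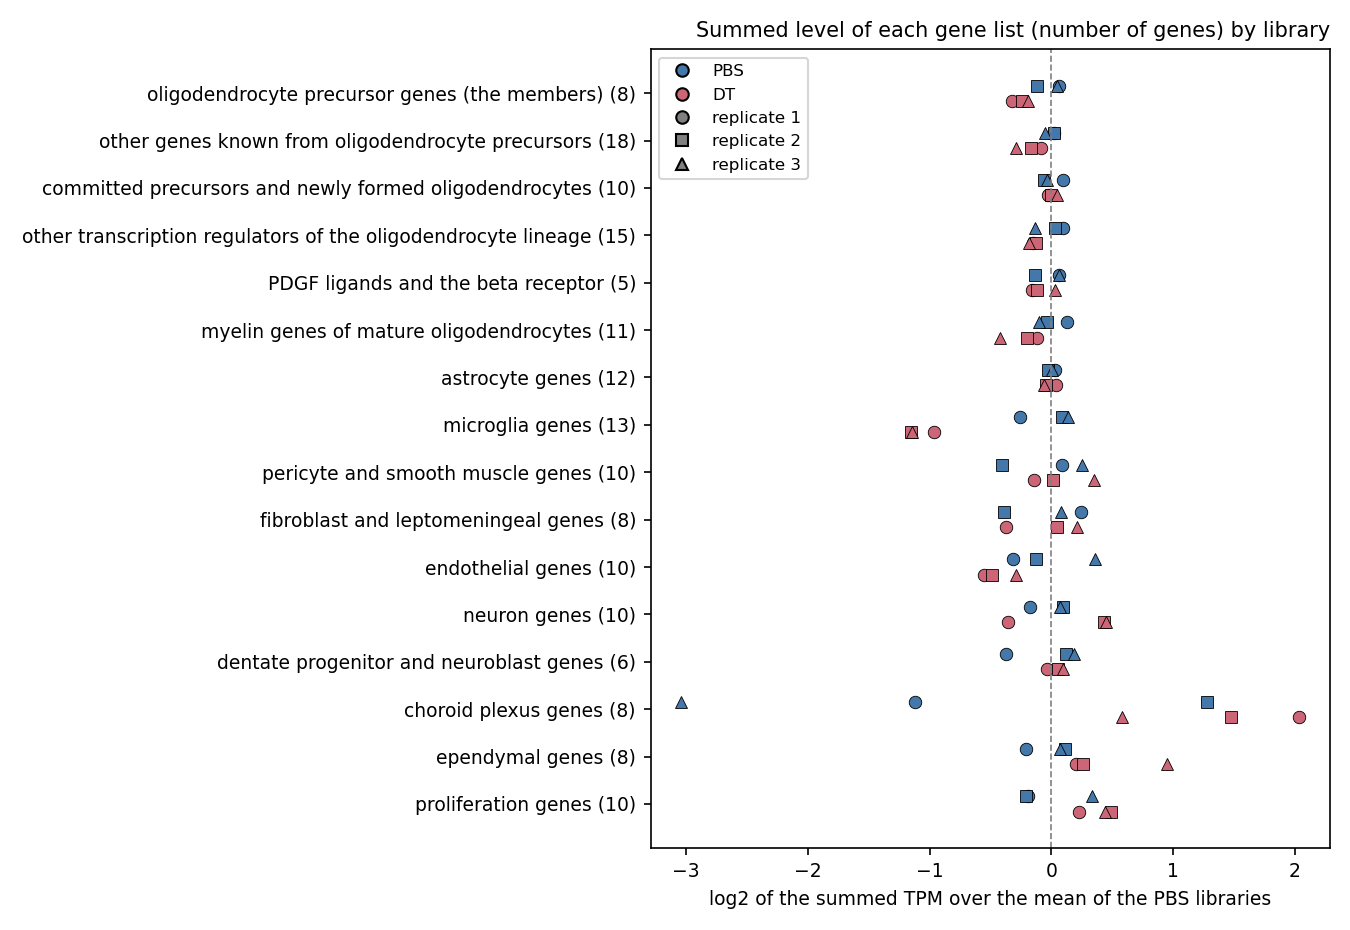
Summed TPM of each gene list in each library, as the log2 ratio to the mean of the PBS libraries, with the number of genes in parentheses, blue for PBS and red for DT and a marker shape for each replicate number. The 8 precursor, the 18 other precursor, the myelin and the microglia genes lie lower in all DT libraries than in all PBS libraries. The sum of the 18 is set mostly by *Bcan*, and the myelin sums lie apart only with *Mal* counted. The pericyte and fibroblast lists overlap.

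The libraries of a group differed in a way that several lists shared and others did not. In CPM, PBS replicate 2 was the lowest PBS library for *Pdgfra*, *Cspg4* and *Gpr17*, for *Neu4* by a margin (4.85 against 4.88 CPM) that TPM did not keep, for 9 of the 18 other precursor genes, for 10 of 10 pericyte and smooth muscle genes and for 8 of 8 fibroblast genes, against 31.9% of all genes tested. In the same unit, DT replicate 3 was the highest DT library for 6 of the 8 genes, for 9 of 10 pericyte and smooth muscle genes, for 9 of 10 endothelial genes and for 8 of 8 ependymal genes, against 34.6% of all genes. Other lists differed in CPM, with PBS replicate 2 lowest for 2 of 11 myelin, 1 of 10 endothelial and 0 of 13 microglia genes. PBS replicate 2 was also lowest for 8 of 12 astrocyte genes. DT replicate 3 was highest for 0 of 11 myelin, 1 of 12 astrocyte and 3 of 13 microglia genes. The sums of the ependymal genes were 649 to 810 TPM in the PBS and 863 to 1448 TPM in the DT libraries. Those of the choroid plexus genes were 102 to 2030 TPM and 1252 to 3433 TPM, and those of the neuron genes 260 to 314 TPM and 230 to 402 TPM. No listed gene of these types was at 0 in a whole group. Their part in the levels of the 8 genes was not tested.

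The genes whose profile over the 6 libraries was most like the mean of the 8 centred profiles were *Dscr3*, *Fam72a*, *Neo1*, *Pglyrp1*, *Zfp236* and *Ism1*, out of 14291 genes with a mean of at least 1 CPM. Their likeness was 0.985 for *Dscr3* and 0.976 for *Ism1* as Pearson's r over 6 libraries, given as a description. *Neo1*, which encodes the netrin receptor neogenin, was at 284 ± 11.0 CPM after PBS and 253 ± 17.2 CPM after DT (SD, n = 3). Of the 18 other precursor genes, the ones most like that mean were *Tnr*, which encodes tenascin-R, with 0.920 at rank 88, and *Gjc3*, a connexin gene, with 0.906 at rank 113. The 18 genes were not alike in this, since they ranged down to -0.851 for *Rlbp1*, at rank 13992, with a median of 0.656. The median was 0.668 over 12 microglia genes with at least 1 CPM and 0.578 over the endothelial genes. It was 0.508 for fibroblast, 0.457 for committed precursor, 0.331 for pericyte and smooth muscle, 0.271 for myelin and 0.135 for astrocyte genes. The mean profile was itself lower in every DT library than in any PBS library, so likeness in part restates that difference.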

How the data were processed

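Astrocyte RNA of 3 PBS and 3 DT libraries was sequenced with a stranded kit. Per the methods, the authors trimmed reads with Trim Galore 0.5.0, mapped them to mm10 with HISAT2 2.1.0, removed rDNA reads with BEDTools 2.25.0, quantified genes with StringTie 1.3.5 and used edgeR 3.24.3. The deposited signal values are CPM whose library sizes carry TMM factors (0.974 to 1.02), and the deposited TPM are per transcript length. The authors' log2 fold changes, p-values and q-values, deposited beside them, were not used. Whole counts, recovered from the CPM steps within 0.05 counts, made up 100% of values. StringTie estimates such counts from coverage, so they are not single molecules. Of the gene names, 27 had been turned into dates.

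Genes with a mean of at least 0.5 CPM were compared as log2(CPM + 0.1), which understates the change of low genes, with limma 3.58.1 in R 4.3.3 (variance trend, two-sided, Benjamini-Hochberg over 15137 genes, threshold 0.05), after a test on simulated data. Per the methods, the RNA pools came from 3 independent experiments. The labels do not say which pools share an experiment, so the main fit had no term for it. The p-values measure the spread between these pools. Alternatives were a pseudocount of 1, no filter, a mean of at least 2 CPM, TPM, quantile normalization, edgeR 4.0.16, DESeq2 1.42.0, the replicate number as a block and each library left out. The 8 genes and the 15 other lists, from general knowledge, were chosen with earlier results of these data known. 1 listed gene is not reported here and was left out of all list values. Named were the 8 genes, genes past the threshold and the 6 genes of most like profile. *Tnr*, *Gjc3* and *Rlbp1* were named for their likeness, and *Atp1b2* as the gene of the antigen bound by the beads. Of the 4 lineage lists, the 3 genes with the smallest p-values and the 3 with the highest TPM were named. Of other lists the first 3 genes were named, and *Mal*, since the myelin sums depended on it.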

Additional observations from a re-analysis of the deposited data

How the results depend on the processing

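With DESeq2 on the recovered counts 227 genes were higher and 98 lower, in place of 84 and 24. It called 2 of the 8 precursor genes, *Gpr17* (-0.86) and *Pdgfra* (-0.54). When single libraries were left out, 6 fits in all, 39 to 72 genes were higher and 9 to 20 lower, and 0 to 1 of the 8 genes passed. *Gpr17* ranged from -1.04 to -0.74 in them and *Pdgfra* from -0.68 to -0.41. *Gpr17* passed at -1.04 without DT replicate 3 and *Pdgfra* at -0.68 without PBS replicate 2. The number of lower genes was 11 without PBS replicate 1, 9 without PBS replicate 2, 10 without PBS replicate 3 and 10 without DT replicate 2. The number of higher genes was 39 without DT replicate 1 and 40 without DT replicate 2.

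Values near 0 changed sign. In these fits *Olig2* ranged from -0.10 to 0.14, *Lhfpl3* from -0.14 to 0.34, *Neu4* from -0.0392 to 0.0537 and *Sox10* from -0.18 to 0.0135. *Olig2* was -0.00183 with quantile normalization, -0.0127 with edgeR and -0.0111 with DESeq2, and *Lhfpl3* (-0.00376) and *Neu4* (-0.0297) also turned with quantile normalization. *Gpr17*, *Pdgfra*, *Cspg4* and *Olig1* stayed below 0 under all 14 alternatives. The median of the 8 genes stayed between -0.15 and -0.07 in the fits that left out a library. Of the values for the other lists, 28 moved past a set limit and 602 did not. These values include numbers of genes called, most of them 0 in the main fit, so the tally says little about stability. Apart from fits with fewer libraries, the cause of a change was not tested.

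Deviations of same-numbered PBS and DT libraries correlated at 0.115, 0.0105 and 0.118. Those of unlike number correlated at -0.124 to 0.0115, so the highest values, 0.115 and 0.118, were from same-numbered libraries. These small values did not establish pairs. A fit with a replicate block called 79 genes as higher and 30 as lower, and 0 of the 8 genes passed (*Gpr17* -0.86, adjusted p = 0.0512). Depth was lowest for *Lhfpl3* (55 to 160 counts), and its part in the width of the interval was not tested.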

Other observations

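Genes of dividing cells were also listed, since precursors divide. All 10 had a log2 fold change above 0, with a median of 0.44, and 0 passed the threshold in limma (3 higher and 0 lower at an unadjusted p-value under 0.05, against 5.91% of all genes). Their summed level was 35.4 to 51.6 TPM after PBS and 47.8 to 57.3 TPM after DT. The proliferation marker *Mki67* was lower in every PBS library than in any DT library, at a log2 fold change of 0.47 (limma adjusted p = 0.240). Genes of dentate progenitors and neuroblasts, among them *Dcx*, *Eomes* and *Neurod1*, had a median of -0.08, with overlapping sums of 20.3 to 29.9 TPM after PBS and 25.6 to 28.0 TPM after DT.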
